A study of Mus musculus with 24 samples.

Results

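The genes described here are 32 mouse genes for enzymes, cofactors, membrane proteins, proton pump subunits and the regulator Tfeb of the lysosome. They were taken by gene symbol from a list that applies no threshold to their values but was drawn up with earlier results of these data known. All 32 were found among the 46078 genes of the deposited count table, each in a single row. RNA-seq was done on the apex of the ventricles of male C57BL/6 mice aged 10 weeks, at day 5 of an injury experiment, with 6 hearts in each of 4 groups. WT_PBS hearts were wild type, had no diphtheria toxin and received the vehicle PBS. WT_PYR hearts were wild type, had no toxin and received pyridostigmine, an inhibitor of the enzyme that breaks down acetylcholine. DTR_PBS and DTR_PYR hearts came from animals labelled DTR, the usual abbreviation for the diphtheria toxin receptor, whose hearts were injured by diphtheria toxin, with PBS and pyridostigmine respectively. The labels state neither the cells that carry the receptor nor the promoter that drives it. The label DTR and the toxin go together in every sample, so that "injury" below means both and their parts cannot be told apart.

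Lysosomes are acidic organelles in which acid hydrolases break down proteins, sugars and lipids delivered by endocytosis, phagocytosis and autophagy. The proton pump, a multi-subunit ATPase, acidifies them, membrane proteins protect the boundary and move ions and nutrients, and cofactors such as the saposins present lipids to their enzymes. The transcription factor TFEB and its relatives bind E-box sequences in the promoters of many lysosomal genes. Macrophages, which engulf dead cells after cardiac injury, are rich in lysosomes, and cardiomyocytes use them for the turnover of mitochondria.

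Promoter sequences are shown because TFEB-type sites are known from many lysosomal promoters and were not used to choose these genes. RefSeq windows (build GRCm38.p6, from 250 bases before to 50 bases after a gene's start) were at hand for 27 of the 32 genes. Ctsb, Ctsh, Npc1, Asah1 and Atp6v0d2 had none. Both strands were searched for TCACGTGA, the core of the site, and for the E-box CACGTG inside it, each of which reads the same on both strands. The core was in 6 of the 27 genes (22.2%) and in 1.12% of all 27025 genes with a window, and the E-box was in 10 of them (37.0%) and in 8.09% of all genes. The core extended by a G before and a C after it was in 0 of the 27 genes and in 0.370% of all genes. A match is a description of letters and not a shown binding site. Of the stretches below, those of Ctsa, Ctsd, Mcoln1 and Gla overlap exons of the GENCODE annotation. That of Atp6v0d1 crosses the gene's RefSeq start. These stretches therefore need not lie upstream of transcribed sequence. A stretch is given for each of the 6 genes with the core, and for Lamp1 and Ctsf among those with an E-box alone, on the gene's strand, 5′ to 3′, with the matched letters in capitals.
Ctsa, first match (chr2:164833749-164833778, + strand): tgagcaaactgTCACGTGAtgcagatgctc
Ctsd (chr7:142387908-142387937, - strand): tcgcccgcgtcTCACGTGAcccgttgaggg
Mcoln1 (chr8:3500462-3500491, + strand): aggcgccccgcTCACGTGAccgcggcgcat
Atp6v0d1 (chr8:105566050-105566079, - strand): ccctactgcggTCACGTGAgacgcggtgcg
Atp6v1a (chr16:44139358-44139417, - strand): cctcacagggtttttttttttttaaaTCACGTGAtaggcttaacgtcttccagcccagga
Gla, first match (chrX:134601215-134601244, - strand): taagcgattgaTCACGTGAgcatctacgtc
Gla, second match (chrX:134601182-134601211, - strand): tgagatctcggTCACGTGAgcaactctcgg
Lamp1, 4 E-boxes (chr8:13159074-13159160, + strand): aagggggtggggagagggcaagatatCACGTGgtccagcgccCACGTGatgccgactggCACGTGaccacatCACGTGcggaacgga
Ctsf (chr19:4855060-4855117, + strand): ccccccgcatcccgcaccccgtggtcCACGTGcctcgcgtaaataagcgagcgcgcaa
The 6 genes with the core were Ctsa, Ctsd, Mcoln1, Atp6v0d1, Atp6v1a and Gla, and those with an E-box alone were Lamp1, Ctsf, Glb1 and Ctsl. Further matches in the windows of Ctsa, Ctsd and Mcoln1 and those of Glb1 and Ctsl are not printed.

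Total counts per library ran from 1877914 to 37842245, and 15456 genes passed the filter on low counts. Lysosomal genes held between 0.427% and 1.02% of a library's counts. Levels are CPM, the counts scaled to a common library size with factors from the trimmed mean of M-values (TMM), a scaling that assumes most genes to be unchanged. Injury responses differed between libraries: DTR_PBS 1 had the highest value of its group for 23 of the 32 genes and DTR_PBS 6 the lowest for 22, and DTR_PYR 2 was the highest of its group for 23. DTR_PYR 4, 5 and 6 lay within the range of the 12 uninjured libraries for 28, 24 and 24 genes, against 8 to 14 for DTR_PYR 1, 2 and 3 and 10 to 18 for the DTR_PBS libraries. Such counts per library were made for the 32 genes alone, so whether they are particular to lysosomal genes was not tested. Titles end in a letter U or V that the labels do not explain. Of each 6 wild-type libraries 4 carried U, and of each 6 DTR libraries 2 did. All members passed the filter on low counts, but Atp6v0d2 passed it mainly through the injured groups: it was above 0.5 CPM in 1 WT_PBS, 0 WT_PYR, 5 DTR_PBS and 2 DTR_PYR libraries.

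Per kilobase of exon, the 32 genes spanned a wide range in uninjured hearts. Exon length here joins all annotated exons of a gene and is not the length of its expressed transcript. Ranks between genes therefore depend in part on the annotation. Psap, the precursor of the saposins, stood first in WT_PBS at 726 ± 93.9 CPM per kb (SD, n = 6), and Ctsd, the aspartic protease cathepsin D, second at 537 ± 61.3 CPM per kb. Lamp1, a glycoprotein coating the lysosomal membrane, followed at 163 ± 18.3, then Laptm4a at 133 ± 37.9 and the cysteine protease gene Ctsb at 79.1 ± 7.32 CPM per kb. Lamp1 and Laptm4a lay within their spread of each other. At the low end, Gla stood at 0.757 ± 0.130 and Atp6v0d2 at 0.0587 ± 0.0750 CPM per kb. Psap and Ctsd kept the first and second place in all 4 groups. In DTR_PBS, Ctsc moved from rank 26 to rank 13 of the 32, Ctsz from 10 to 6, Gusb from 25 to 16 and Ctsf from 14 to 28.

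**Figure D1:**
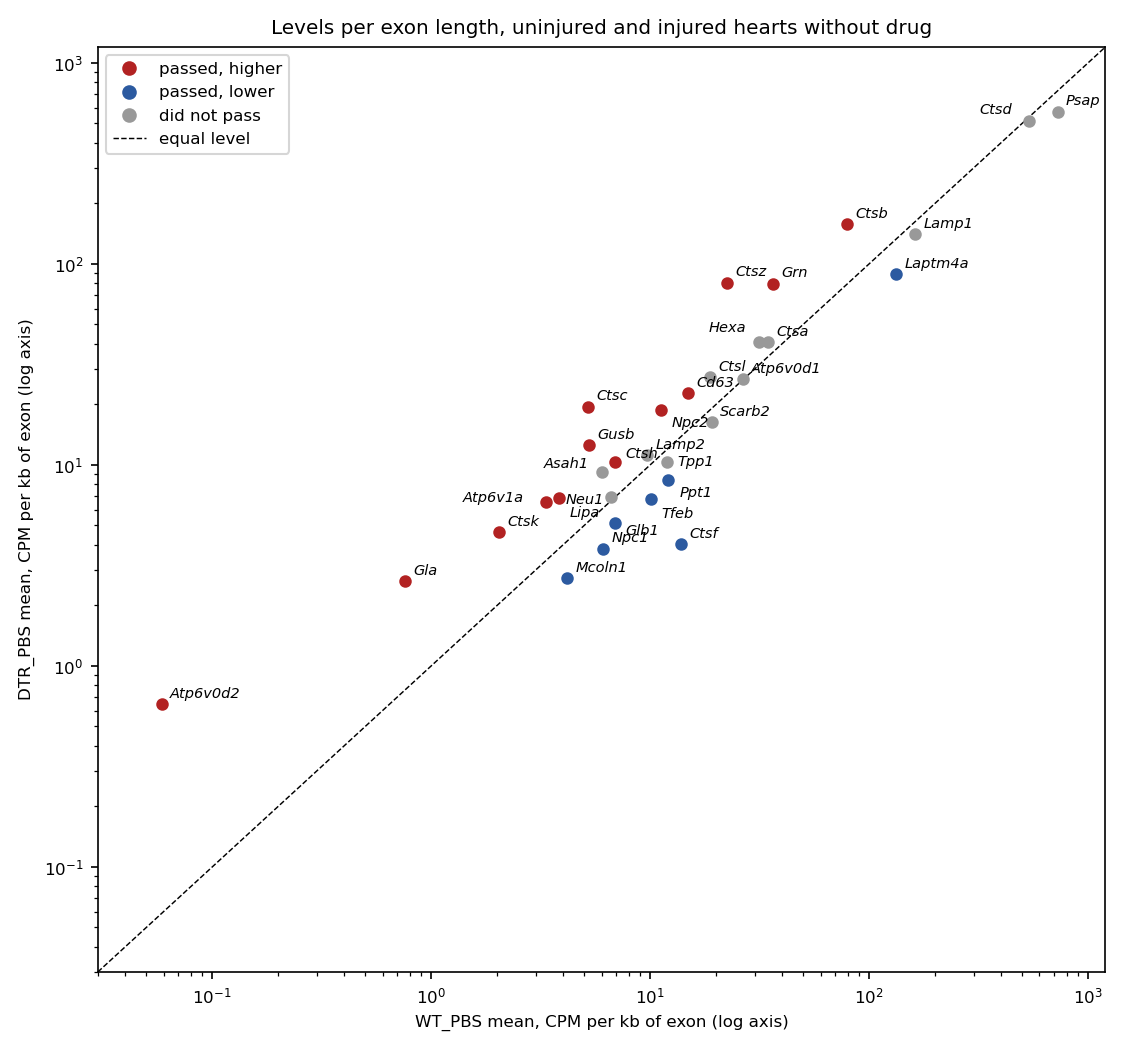
Mean level of each of the 32 genes in CPM per kilobase of exon (log axes), with WT_PBS on the x axis and DTR_PBS on the y axis (6 libraries each); the dashed line marks equal levels. Red and blue points passed the test upward and downward under TMM scaling: Ctsc, Ctsz and Atp6v0d2 lie far above the line and Ctsf far below it, while Psap and Ctsd at the top right lie near it.

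Injury under PBS (DTR_PBS against WT_PBS) asks how the injury alters these genes without the drug. Of the 32 genes 13 rose, 7 fell and 12 did not pass the test, where 42.9% of all 15456 genes passed (21.3% upward, 21.6% downward). Without Atp6v0d2 the counts were 12, 7 and 12 of 31. The median log2 fold change of the 32 genes was 0.31 (0.24 without Atp6v0d2), against 0.01 over all genes tested. The libraries of the groups did not overlap for 6 genes that were higher (11.2% of all genes) and for 2 that were lower (11.0%), together 22.2% of all genes. The summed level of the 32 genes was 5824 ± 561 CPM in WT_PBS and 6166 ± 1152 CPM in DTR_PBS (SD, n = 6 each), a difference within the spread of the libraries. The sum ran from 5200 to 6665 CPM in WT_PBS and from 4907 to 7935 CPM in DTR_PBS. Psap made up 34.1% of the sum in WT_PBS and 26% in DTR_PBS, and Ctsb 8.23% and 15.0%. Without Psap the sum was 3833 ± 331 CPM in WT_PBS and 4594 ± 1056 CPM in DTR_PBS. As a share of raw counts, without TMM scaling, the 32 genes held 0.522 ± 0.0654% in WT_PBS and 0.722 ± 0.212% in DTR_PBS.

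Downward calls depended on the scaling. Scaling by total counts in place of TMM moved the median log2 change of all genes from 0.01 to 0.39, and under it 18 members rose and 1, Ctsf, fell, as 5705 and 1756 of all genes did. No called member changed sign, but the falls other than that of Ctsf did not pass under it (log2 -0.27 for Mcoln1, -0.27 for Npc1 and -0.28 for Tfeb), so that they are falls relative to the typical gene. In this bulk tissue, fewer cells of a type and less RNA per cell cannot be told apart.

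**Figure D2:**
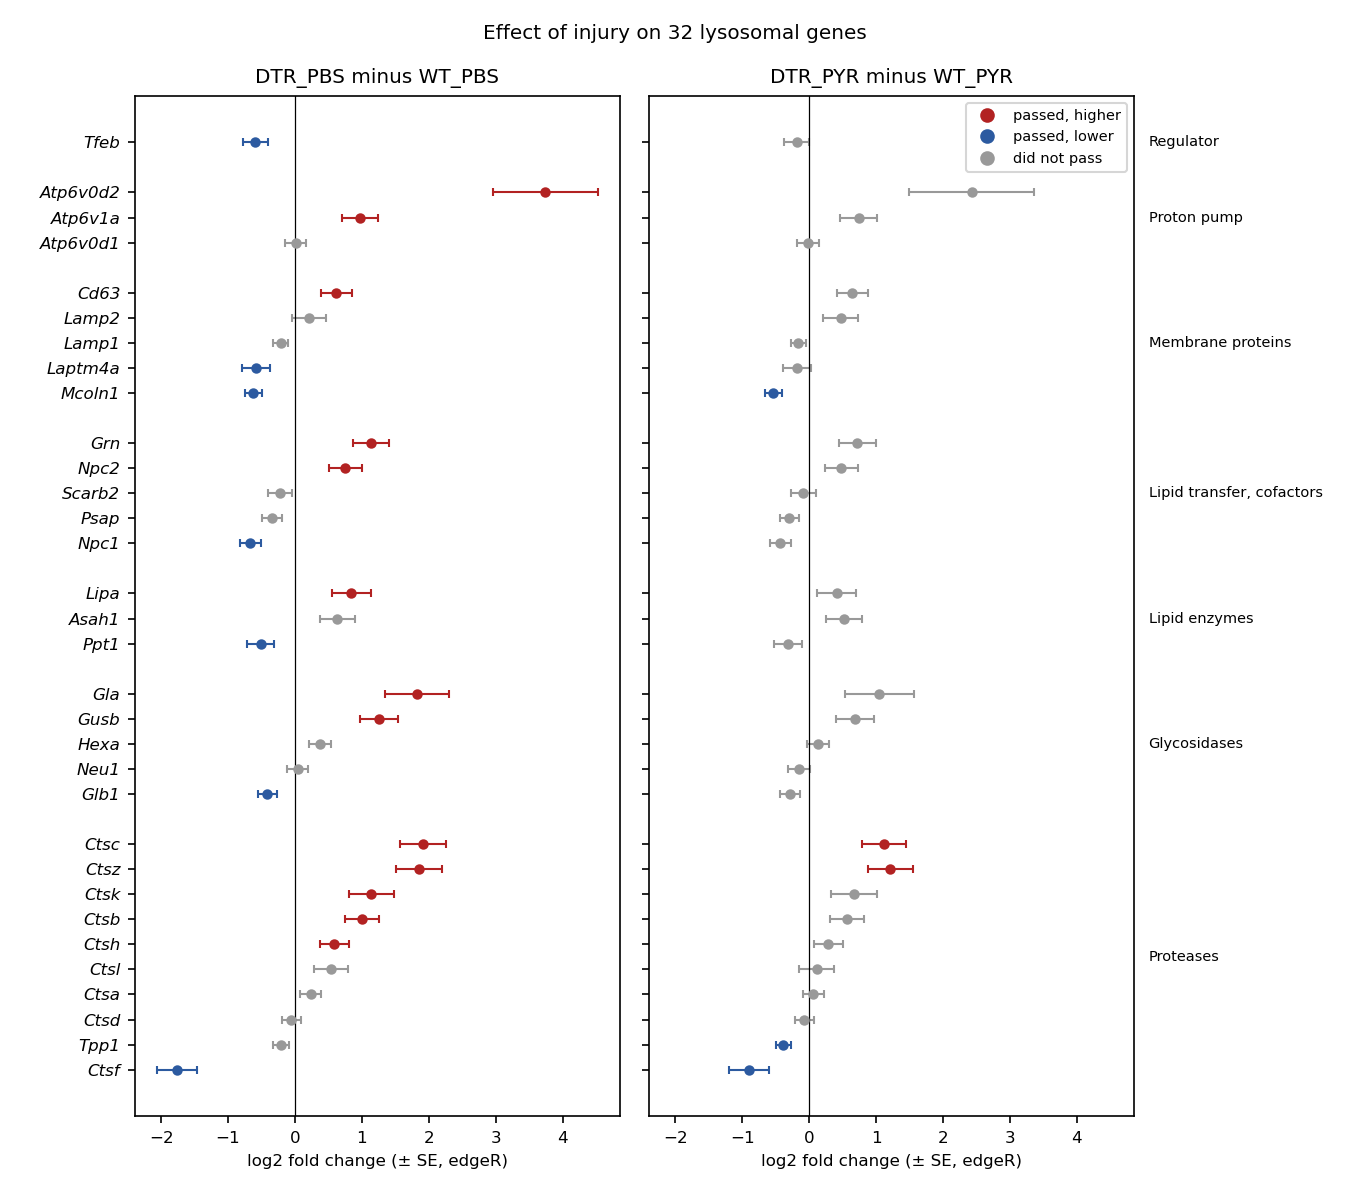
Log2 fold change with its standard error (x axis) of the 32 genes, grouped by role, for injury under PBS (left) and injury under pyridostigmine (right), from edgeR with TMM scaling. Coloured points passed the test: 13 higher and 7 lower on the left, 2 higher and 3 lower on the right, where most points on the upward side lie nearer to 0.

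Among the 10 proteases, 5 rose, 1 fell and 4 did not pass. All 6 that passed are cysteine cathepsins, of which the list holds 7. Ctsc encodes cathepsin C, a dipeptidyl peptidase that activates the serine proteases of immune cell granules (chr7:88278085-88310888). Its lowest, median and highest values were 22.6, 30.7 and 37.2 CPM in WT_PBS, 17.6, 28.3 and 33.6 in WT_PYR, 56.1, 83.7 and 231 in DTR_PBS, and 32, 42.9 and 119 in DTR_PYR. Every DTR_PBS library thus lay above every wild-type library, and DTR_PYR overlapped WT_PYR. Ctsc rose 3.76-fold (log2 1.91 ± 0.34 SE, edgeR adjusted p = 0.000112).

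Ctsz encodes cathepsin Z, a carboxypeptidase (chr2:174427493-174439039). It measured 25.3, 34.3 and 37.6 CPM (lowest, median, highest) in WT_PBS, 29.2, 31.8 and 42.8 in WT_PYR, 63.4, 106 and 175 in DTR_PBS, and 31.8, 57.8 and 204 in DTR_PYR. The 6 DTR_PBS values were all above the wild-type ones, while DTR_PYR 4, 5 and 6 lay among them. The rise was 3.60-fold (log2 1.85 ± 0.34, adjusted p = 0.000170). Ctsb, which encodes cathepsin B, an abundant endopeptidase and dipeptidase, also did not overlap: its means were 479 ± 44.3 CPM in WT_PBS and 958 ± 392 in DTR_PBS, a 2.0-fold rise (adjusted p = 0.00276). Ctsk, known for collagen breakdown in bone, rose 2.20-fold from a low 3.08 CPM (adjusted p = 0.00734), and Ctsh rose 1.5-fold (adjusted p = 0.0310). Groups overlapped for both. The call for Ctsh was lost when any 1 of WT_PBS 2, 3 and 5 and DTR_PBS 1 and 2 was left out, with adjusted p between 0.0530 and 0.111.

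Ctsf, the gene of cathepsin F, another cysteine protease, went the other way (chr19:4855129-4860912). It ran at 49.8, 73.4 and 78.1 CPM in WT_PBS, 63.8, 68.7 and 79.6 in WT_PYR, 10.1, 19.1 and 35.3 in DTR_PBS, and 14.5, 40.2 and 58.5 in DTR_PYR, again as lowest, median and highest. No library of an injured group reached its own wild-type group. The fall was 3.39-fold (log2 -1.76 ± 0.30, adjusted p = 8.26e-05), and Ctsf was the one member that fell under every scaling tried. Ctsd stood at 1263 ± 144 CPM in WT_PBS and 1215 ± 103 in DTR_PBS (log2 -0.06, 95% interval -0.35 to 0.24), and exons of Ctsd share 34.4% of their bases with another annotated gene, so that its counts are uncertain. Ctsl (log2 0.54, adjusted p = 0.0939), Ctsa (0.24) and Tpp1 (-0.21), which encode cathepsin L, cathepsin A and tripeptidyl peptidase, did not pass either.

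Of the 5 glycosidases 2 rose and 1 fell. Gla, the gene of alpha-galactosidase A, the enzyme lacking in Fabry disease, is low in the heart (chrX:134588149-134601125). Its lowest, median and highest values were 1.93, 2.51 and 3.15 CPM in WT_PBS, 1.27, 1.98 and 2.96 in WT_PYR, 1.60, 6.37 and 18.5 in DTR_PBS, and 1.73, 2.13 and 13.0 in DTR_PYR. DTR_PBS 6 was below every WT_PBS library and the other 5 were above them, and in DTR_PYR only libraries 2 and 3 exceeded the wild-type range. Gla rose 3.53-fold (log2 1.82 ± 0.48, adjusted p = 0.00357).

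Gusb, the gene of beta-glucuronidase, did not overlap and rose 2.39-fold, from 24 ± 4.20 to 57.0 ± 24.5 CPM (adjusted p = 0.000955). Glb1, which encodes beta-galactosidase, fell from 20.8 ± 2.62 to 15.5 ± 1.88 CPM (log2 -0.41, adjusted p = 0.0223), a call lost without WT_PBS 1 (adjusted p = 0.0509) or WT_PBS 4 (0.0543). Hexa (log2 0.38, adjusted p = 0.0619) and Neu1 (0.04), for a beta-hexosaminidase chain and a sialidase, did not pass.

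The 3 enzymes of lipid substrates split 1 up, 1 down and 1 not passed. Lipa encodes the acid lipase that frees cholesterol and fatty acids from lipoprotein lipids (chr19:34492318-34527474). It measured 18.0, 24.9 and 35.7 CPM (lowest, median, highest) in WT_PBS, 16.8, 20.1 and 27.3 in WT_PYR, 24, 31.6 and 96.7 in DTR_PBS, and 19.1, 24.7 and 52.4 in DTR_PYR. DTR_PBS 1 and 2, at 96.7 and 65.2 CPM, stood far above the other 4, which overlapped WT_PBS. Lipa rose 1.79-fold (log2 0.84 ± 0.29, adjusted p = 0.0217), but not without DTR_PBS 1 (log2 0.47, adjusted p = 0.149), DTR_PBS 2 (0.0628) or WT_PBS 4 (0.0520). Ppt1, a thioesterase gene, was close to the threshold (log2 -0.51, adjusted p = 0.0463), and its call was lost without WT_PBS 1 or 6 or DTR_PBS 3, 4, 5 or 6 (adjusted p from 0.0875 to 0.139). Asah1, for acid ceramidase, missed the threshold (log2 0.63, adjusted p = 0.0539).

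Among the 5 genes for lipid transfer and cofactors, Grn and Npc2 rose and Npc1 fell. Grn encodes progranulin, a secreted and lysosomal protein that supports hydrolase activity (chr11:102430315-102437048). Its lowest, median and highest values were 95, 126 and 156 CPM in WT_PBS, 118, 133 and 168 in WT_PYR, 161, 282 and 367 in DTR_PBS, and 113, 189 and 514 in DTR_PYR. All DTR_PBS libraries lay above all WT_PBS libraries, though the lowest, 161 CPM, was close to the highest WT_PBS value. Grn rose 2.20-fold (log2 1.13 ± 0.27, adjusted p = 0.00174).

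The protein of Npc2 hands cholesterol to that of Npc1 on its way out of the lysosome, and their genes moved apart. Npc2, the soluble carrier, rose from 60.8 ± 6.72 to 102 ± 28.8 CPM with no overlap (log2 0.75, adjusted p = 0.0158; 0.0522 without DTR_PBS 2). Npc1, the membrane partner, fell from 69.3 ± 9.62 to 43.4 ± 9.12 CPM (log2 -0.67, adjusted p = 0.00125). Psap stood at 1991 ± 258 CPM in WT_PBS and 1571 ± 125 in DTR_PBS (log2 -0.34, adjusted p = 0.0588), and Scarb2, whose protein carries glucocerebrosidase to the lysosome, gave log2 -0.22 (adjusted p = 0.351).

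Of the 5 membrane proteins 1 rose and 2 fell. Mcoln1 encodes mucolipin, the calcium channel of the lysosomal membrane (chr8:3500457-3515232). It measured 29.1, 31.2 and 35.4 CPM (lowest, median, highest) in WT_PBS, 30.3, 33.0 and 40.3 in WT_PYR, 17.8, 20.0 and 25.3 in DTR_PBS, and 19.5, 22.5 and 30.3 in DTR_PYR. DTR_PBS lay wholly below WT_PBS, and DTR_PYR touched WT_PYR through its single highest library. Mcoln1 fell 1.54-fold (log2 -0.63 ± 0.13, adjusted p = 0.000412), with little spread compared with the rising genes. Laptm4a fell (log2 -0.58, adjusted p = 0.0276), though not without WT_PBS 1 (adjusted p = 0.104) or DTR_PBS 3 (0.0566). Cd63, a tetraspanin of late endosomes and exosomes, rose (log2 0.61, adjusted p = 0.0346), a call lost without any 1 of WT_PBS 2, 4, 5 and 6 and DTR_PBS 1 and 2 (adjusted p from 0.0546 to 0.149). The structural glycoproteins of the membrane did not pass: Lamp1 gave log2 -0.22 (95% interval -0.46 to 0.03) and Lamp2 0.21 (-0.33 to 0.75).

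Among the 3 proton pump genes, Atp6v0d2 (chr4:19876841-19922605) encodes an isoform of the d subunit that is known from osteoclasts, whose more widely used counterpart is encoded by Atp6v0d1. It had 12 counts in all 6 WT_PBS libraries together, 6 in WT_PYR, 265 in DTR_PBS and 29 in DTR_PYR, and 195 of the 265 came from DTR_PBS 1. Its lowest, median and highest levels were 0, 0.102 and 0.543 CPM in WT_PBS, 0, 0.0381 and 0.403 in WT_PYR, 0.534, 1.19 and 4.19 in DTR_PBS, and 0, 0.357 and 1.78 in DTR_PYR. DTR_PBS 3 and 6, at 0.541 and 0.534 CPM, were just under the highest WT_PBS library. Because it entered the fit mainly through injured libraries, its fitted log2 change of 3.74 ± 0.79 is given as a description and its test supports nothing here. Per kilobase it stayed the lowest of the 32 in all 4 groups. Atp6v1a, the catalytic subunit, rose 1.96-fold (adjusted p = 0.00550), and Atp6v0d1 measured 47.4 ± 8.45 and 47.7 ± 5.82 CPM (log2 0.01, 95% interval -0.33 to 0.35).

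Tfeb, the regulator, fell (chr17:47737030-47792419). It ran at 43.9, 54.5 and 72.6 CPM (lowest, median, highest) in WT_PBS, 51.3, 61.1 and 72.8 in WT_PYR, 22.7, 39.5 and 53.2 in DTR_PBS, and 40.5, 54.4 and 72.7 in DTR_PYR. DTR_PBS 1 and 2, the libraries with the highest Ctsc and Lipa, had its lowest values, 22.7 and 26.7 CPM, and the groups overlapped. The fall was 1.51-fold (log2 -0.59 ± 0.19, adjusted p = 0.0121). The 6 genes with the TCACGTGA core shown above did not share a direction: Gla and Atp6v1a rose, Mcoln1 fell, and Ctsa, Ctsd and Atp6v0d1 did not pass.

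**Figure D3:**
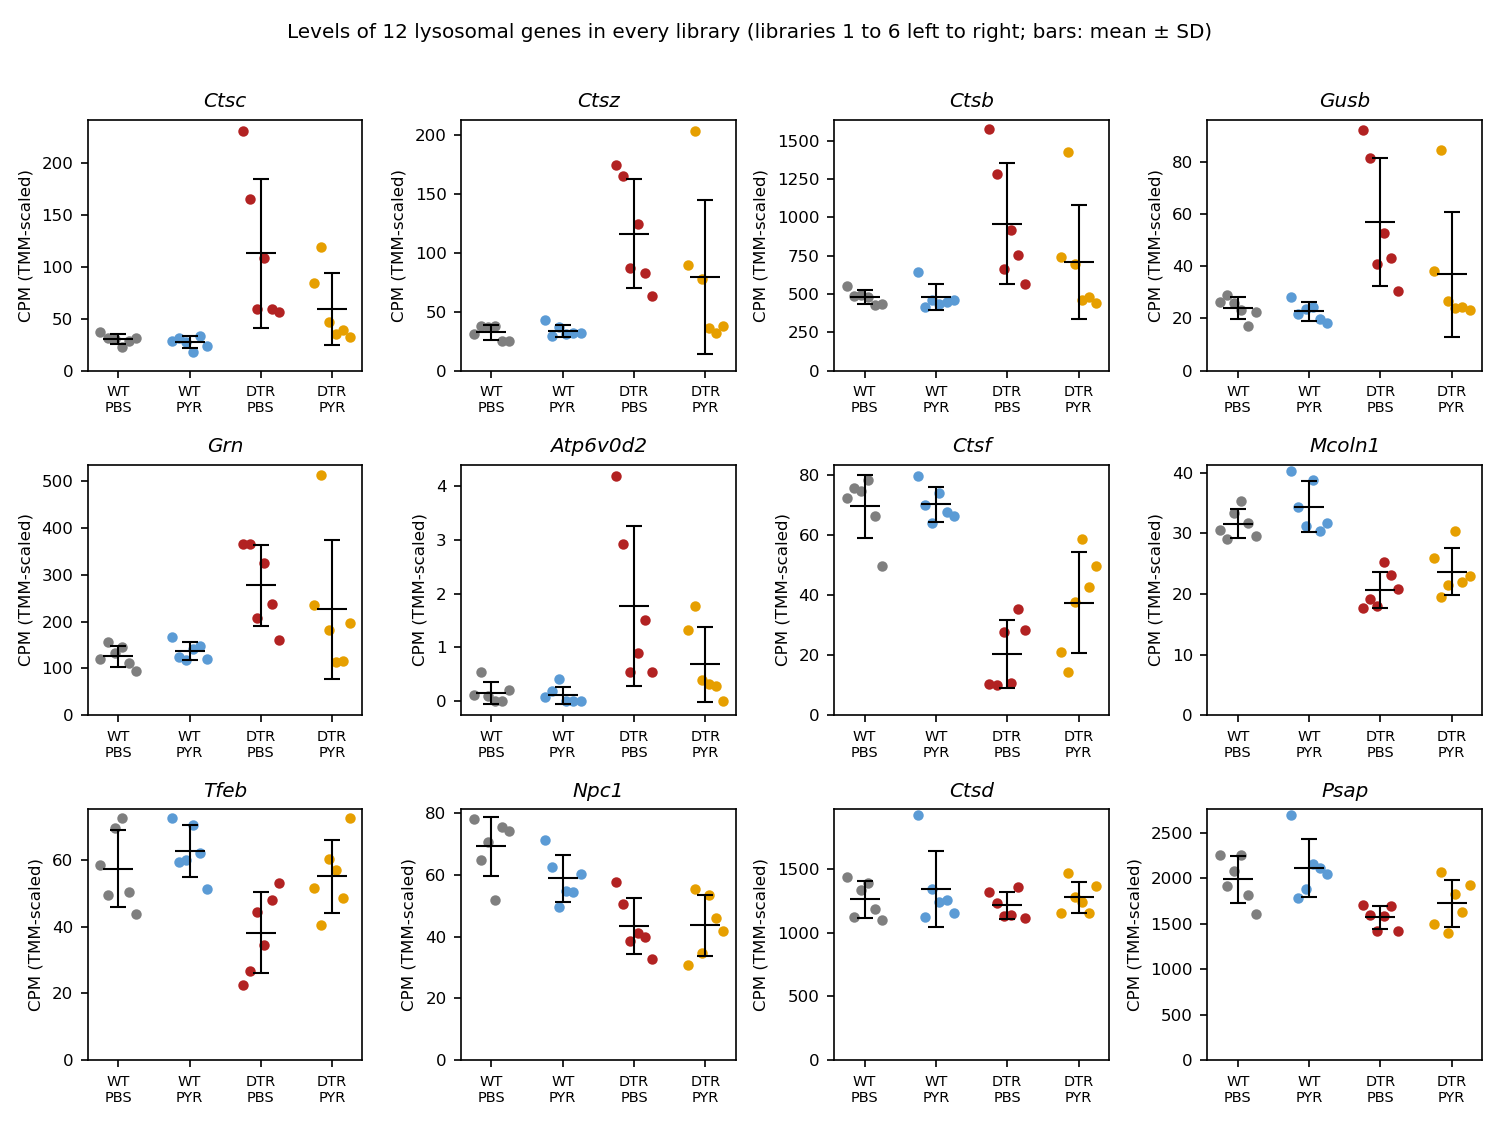
TMM-scaled CPM of 12 of the genes in each of the 24 libraries (y axis, linear from 0), by group on the x axis, with libraries 1 to 6 of a group from left to right; black marks are the mean ± SD of 6. DTR_PBS 1 and 2 and DTR_PYR 2 carry the highest values of the rising genes, such as 231 CPM for Ctsc and 204 CPM for Ctsz. Ctsf is lowest in DTR_PBS 2, 1 and 4 (10.1, 10.4 and 10.6 CPM), followed by DTR_PYR 2 (14.5 CPM), while Ctsd overlaps in all groups.

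The letter in the titles and cell type markers moved with these results. Within the U libraries alone 17 members passed (15 up, 2 down), and within the V libraries 7 (5 up, 2 down), with fewer libraries in each, where 38.2% and 16.3% of all genes passed. The log2 change of Ctsc was 2.52 within U and 1.49 within V, and those of Ctsz were 2.19 and 1.71, of Gusb 1.62 and 1.06, of Ctsf -2.80 and -1.28, of Tfeb -1.06 and -0.37, and of Mcoln1 -0.60 and -0.61. Every member called over all libraries kept its sign within both letters.

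Macrophage genes rose with injury: 18 of 19 markers passed, all upward, with a summed level of 358 to 502 CPM in WT_PBS and 944 to 2815 CPM in DTR_PBS, and 0 of the 19 at 0. DTR_PBS 1 and 2, the highest for most rising members, also had the highest sums, 2815 and 2382 CPM, and DTR_PBS 6 the lowest, 944 CPM. Of 8 monocyte markers 7 rose (13.2 to 32.1 CPM in WT_PBS, 104 to 556 in DTR_PBS), and of 9 fibroblast markers 5 rose (892 to 1176 and 2891 to 6822 CPM). Of 10 cardiomyocyte markers 6 fell, from a sum of 83957 to 89959 CPM to one of 25575 to 70236 CPM, and of 8 endothelial markers 6 fell (1063 to 1422 and 659 to 862 CPM). Beside Atp6v0d2, the 6 markers of osteoclasts and multinucleated macrophages summed to 2.72 to 4.07 CPM in WT_PBS and 8.81 to 30.2 CPM in DTR_PBS. Of these 6 genes 3 were tested and 2 rose, while Calcr was at 0 in every library. The part of cell type, and of the title letter, in the changes of the lysosomal genes was not tested.

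**Figure D4:**
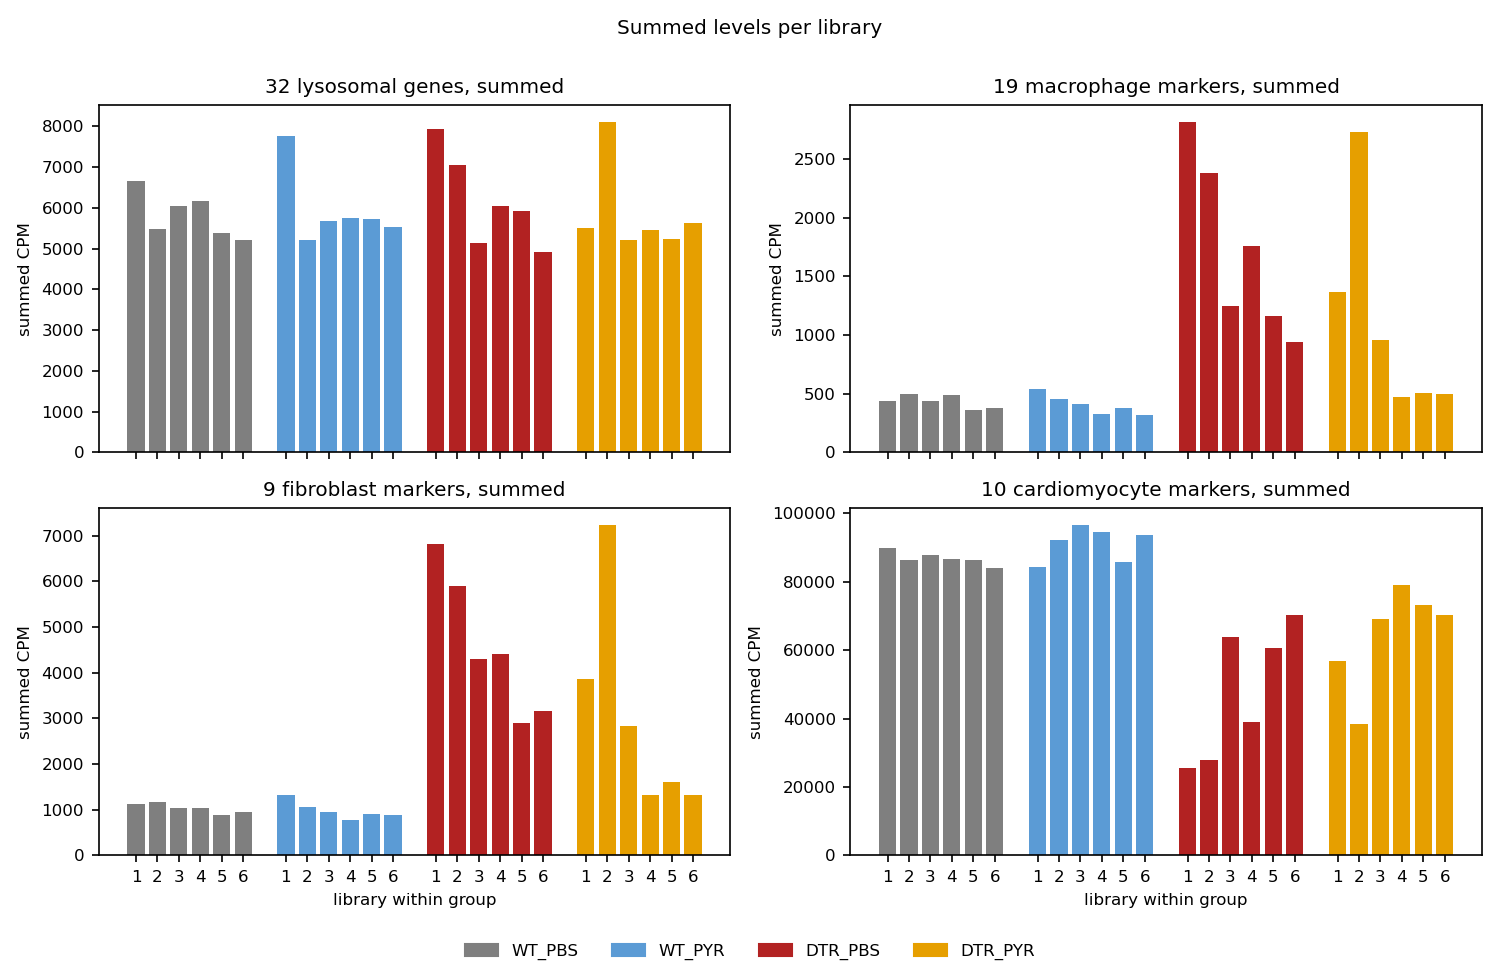
Summed CPM (y axes, from 0) of the 32 lysosomal genes and of the macrophage, fibroblast and cardiomyocyte markers in each library (x axes), coloured by group. The lysosomal sum runs from 4907 to 8106 CPM over all libraries, while the macrophage sum reaches 2815 CPM in DTR_PBS 1 and 2732 in DTR_PYR 2 and stays between 315 and 539 in the wild-type libraries and between 476 and 505 in DTR_PYR 4, 5 and 6.

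Other genes of the lysosome were taken from lists beside the members. Of 33 other soluble hydrolases and activators 10 rose and 4 fell. The 3 with the smallest p were Ctss, the cathepsin S of antigen-presenting cells (log2 3.36 ± 0.55, adjusted p = 6.09e-05), Lgmn, an asparaginyl protease (1.66 ± 0.31), and Acp5, the tartrate-resistant acid phosphatase (3.22 ± 0.73). Of 30 other membrane proteins and transporters 8 rose and 6 fell, and Cd68 (log2 3.20 ± 0.54), Laptm5 (2.24 ± 0.40) and Litaf (1.79 ± 0.34) led by p. Cd68 and Laptm5 are themselves typical of leukocytes. Of 18 other proton pump subunits 3 rose and 5 fell, with Atp6v0e2 (log2 -1.40 ± 0.27), Atp6v1e1 (-0.65 ± 0.13) and Atp6v0a2 (-0.63 ± 0.13) first by p.

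In the lists for delivery, control and autophagy more genes fell than rose under TMM scaling. Of 20 receptors and enzymes that deliver hydrolases 1 rose and 3 fell, and the falls were Sort1 (log2 -0.83 ± 0.15), Gga2 (-0.61 ± 0.14) and Igf2r (-0.45 ± 0.11), which encode sortilin, a coat adaptor and the mannose phosphate receptor. Of 22 regulators, Tfeb relatives and nutrient-sensing complexes 1 rose and 7 fell, led by Flcn (-1.01 ± 0.20), Rragb (-2.40 ± 0.47) and Tsc2 (-0.91 ± 0.19). Of 31 autophagy genes 3 rose and 13 fell, led by Wipi1 (-1.07 ± 0.18), Bnip3 (-1.40 ± 0.28) and Map1lc3a (-1.19 ± 0.25). The median log2 changes of the delivery, regulator and autophagy lists were 0.03, -0.21 and -0.37, against 0.01 for all genes. Of 6 tested inhibitors of cathepsins 2 rose, Cstb (1.80 ± 0.37) and Ctla2a (1.07 ± 0.32), and 0 fell. In all, 66 of the 160 genes tested in these 7 lists passed (41.3%), near the 42.9% of all genes. Within the V libraries alone 17 passed, where 16.3% of all genes did. The directions depended on the scaling: with TMM 28 rose and 38 fell, and with total counts 65 rose and 16 fell, with 7 delivery genes, 7 regulators and 9 autophagy genes up and 1, 4 and 5 down.

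Injury under pyridostigmine (DTR_PYR against WT_PYR) was the same contrast in treated animals. Of the 32 genes 2 rose, 3 fell and 27 did not pass, where 12.2% of all genes passed (8.06% upward, 4.17% downward). Ctsz rose 2.32-fold (log2 1.21 ± 0.34, edgeR adjusted p = 0.0224) and Ctsc 2.17-fold (1.12 ± 0.33, adjusted p = 0.0305). Ctsf fell 1.86-fold (log2 -0.90 ± 0.29, adjusted p = 0.0448), Mcoln1 1.45-fold (-0.53 ± 0.13, adjusted p = 0.00978) and Tpp1 1.31-fold (-0.39 ± 0.11, adjusted p = 0.0291). The groups did not overlap for Ctsf and Tpp1, both lower (3.18% of all genes), and 0 of the members were higher without overlap (2.19%, together 5.36%). Under total-count scaling, which moved the median of all genes from 0.04 to 0.19, 4 members rose and 1 fell, as 1880 and 395 of all genes did. Ctsz, Ctsc, Atp6v1a and Cd63 rose and Ctsf fell under it. The falls of Mcoln1 (log2 -0.38) and Tpp1 (-0.23) did not pass under total-count scaling. Tpp1, the tripeptidyl peptidase gene, measured 58.8, 65.6 and 85.6 CPM (lowest, median, highest) in WT_PYR and 49.4, 51.6 and 56.7 in DTR_PYR.

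The other 27 members did not pass. Atp6v0d2 had log2 2.43 ± 0.93 (adjusted p = 0.0830), Gla 1.05 ± 0.51 (0.170), Grn 0.72 ± 0.27 (0.0780), Gusb 0.69 ± 0.28 (0.105) and Tfeb -0.18 ± 0.18 (0.532). Summed over the 32 genes, WT_PYR stood at 5941 ± 916 CPM and DTR_PYR at 5863 ± 1111 CPM. The macrophage markers passed in 17 of 19 cases, with sums of 315 to 539 CPM in WT_PYR and 476 to 2732 CPM in DTR_PYR. Cardiomyocyte markers fell in 2 of 10 cases (84444 to 96597 and 38424 to 78935 CPM), endothelial ones in 4 of 8 (1171 to 1532 and 718 to 1123 CPM), and fibroblast ones rose in 6 of 9 (781 to 1325 and 1312 to 7233 CPM). The part of these in the members' changes was not tested. Of the other lysosomal lists, 2 hydrolases (Ctss and Lgmn) and 6 membrane genes rose, and 1 membrane gene, 1 pump subunit, 2 delivery genes, 2 regulators and 3 autophagy genes fell.

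This comparison rested on few libraries. The number of members called ranged from 1 to 8 when 1 library was left out: it was 1 without DTR_PYR 1 or DTR_PYR 2, 2 without WT_PYR 1 or 4, 3 without WT_PYR 6 or DTR_PYR 3, and 8 without DTR_PYR 4 or 6. The share of all genes that passed moved with it, from 4.81% without DTR_PYR 1 and 4.85% without DTR_PYR 2 to 17.5% without DTR_PYR 4 and 15.3% without DTR_PYR 6. Ctsz lost its call without DTR_PYR 2 (log2 0.67, adjusted p = 0.124) or DTR_PYR 1 (adjusted p = 0.0545). Ctsc lost it without DTR_PYR 1 or 2 or WT_PYR 1, 4 or 6 (adjusted p from 0.0513 to 0.122), Tpp1 without WT_PYR 1 or 4 or DTR_PYR 1, 2 or 3 (0.0575 to 0.0743), and Ctsf without DTR_PYR 1, 2 or 3 or any single WT_PYR library (0.0560 to 0.119). Mcoln1 passed whichever single library was left out, but not under total-count scaling and not within the U or the V libraries alone. Without DTR_PYR 2 and 3, the shallowest of the group, and DTR_PBS 4, 0 members passed (log2 -0.45 for Mcoln1, adjusted p = 0.102), where 0.647% of all genes did. Within the U libraries, which hold DTR_PYR 1 and 2, 12 members passed beside 28.3% of all genes. Within the V libraries 0 members and 0 of all genes passed, so that this 0 says nothing of lysosomal genes in particular. The log2 change within U and V was 2.09 and 0.43 for Ctsz, 1.96 and 0.36 for Ctsc and -0.62 and -0.45 for Mcoln1. The title letter and the libraries with high macrophage sums thus moved together here.

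Pyridostigmine in injured hearts (DTR_PYR against DTR_PBS) tests whether the drug alters these genes after injury. No member and no gene passed with all libraries in edgeR (0 of 15456, or 0%). At an unadjusted p under 0.05 there were 8 members and 2991 genes, limma voom called 4 members (Atp6v0d2, Gla, Ctsf and Tfeb) and 1765 genes, and DESeq2 0 members and 242 genes. Ctsc stood at 113 ± 72.0 CPM in DTR_PBS and 59.3 ± 34.8 in DTR_PYR (log2 -0.95, 95% interval -1.64 to -0.26, adjusted p = 0.154), Gla gave -1.13 (-2.15 to -0.12, adjusted p = 0.206), Lipa -0.75 (-1.36 to -0.14, adjusted p = 0.178), Ctsf 0.88 (0.26 to 1.5, adjusted p = 0.149) and Tfeb 0.53 (0.14 to 0.92, adjusted p = 0.155). DTR_PBS serves as the other group in the injury contrast too, so that signs opposite to those of the injury are not independent of it. The groups overlapped for all 32 members, while 0.375% of all genes did not overlap (0.162% higher, 0.214% lower). Total-count scaling, which moved the median of all genes from -0.01 to -0.16, gave 0 members too.

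Among single libraries left out, only DTR_PYR 2 changed the count of members. Its macrophage sum, 2732 CPM, was the highest of its group, in which the other 5 ran from 476 to 1368 CPM, and its total of 2805284 counts was low. Without it 11 members passed, 2 upward (Ctsf and Tfeb) and 9 downward (Ctsb, Ctsc, Ctsl, Ctsz, Gla, Grn, Gusb, Lipa and Npc2), with 2404 genes in all. The log2 change then was -1.27 for Ctsc (edgeR adjusted p = 0.0166), -1.11 for Ctsz (0.0148), -1.84 for Gla (0.0147), -1.07 for Gusb (0.0121) and 1.04 for Ctsf (0.0190). DTR_PYR 2 was singled out from these same values, and leaving it out builds in a larger difference, so these calls support no drug effect. Leaving out the 3 libraries with the fewest counts, DTR_PBS 4 and DTR_PYR 2 and 3 (1877914 to 2805284), gave 9 members and 2114 genes. Because DTR_PYR 2 is among them, these calls are not independent of the ones above and support no drug effect either. Within the V libraries 3 members and 769 genes passed, and within the U libraries 0 members and 0 genes. DTR_PYR 4, 5 and 6, with members mostly inside the wild-type range, had macrophage sums of 476, 505 and 499 CPM, within the wild-type range of 315 to 539 CPM. Other markers differed from wild type. The cardiomyocyte sums of these libraries, 78935, 73083 and 70266 CPM, were below the lowest wild-type sum, 83957 CPM. Their fibroblast sums, 1312, 1605 and 1330 CPM, lay around the highest wild-type sum, 1325 CPM. Whether those hearts were injured less or recovered more cannot be told apart.

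**Figure D5:**
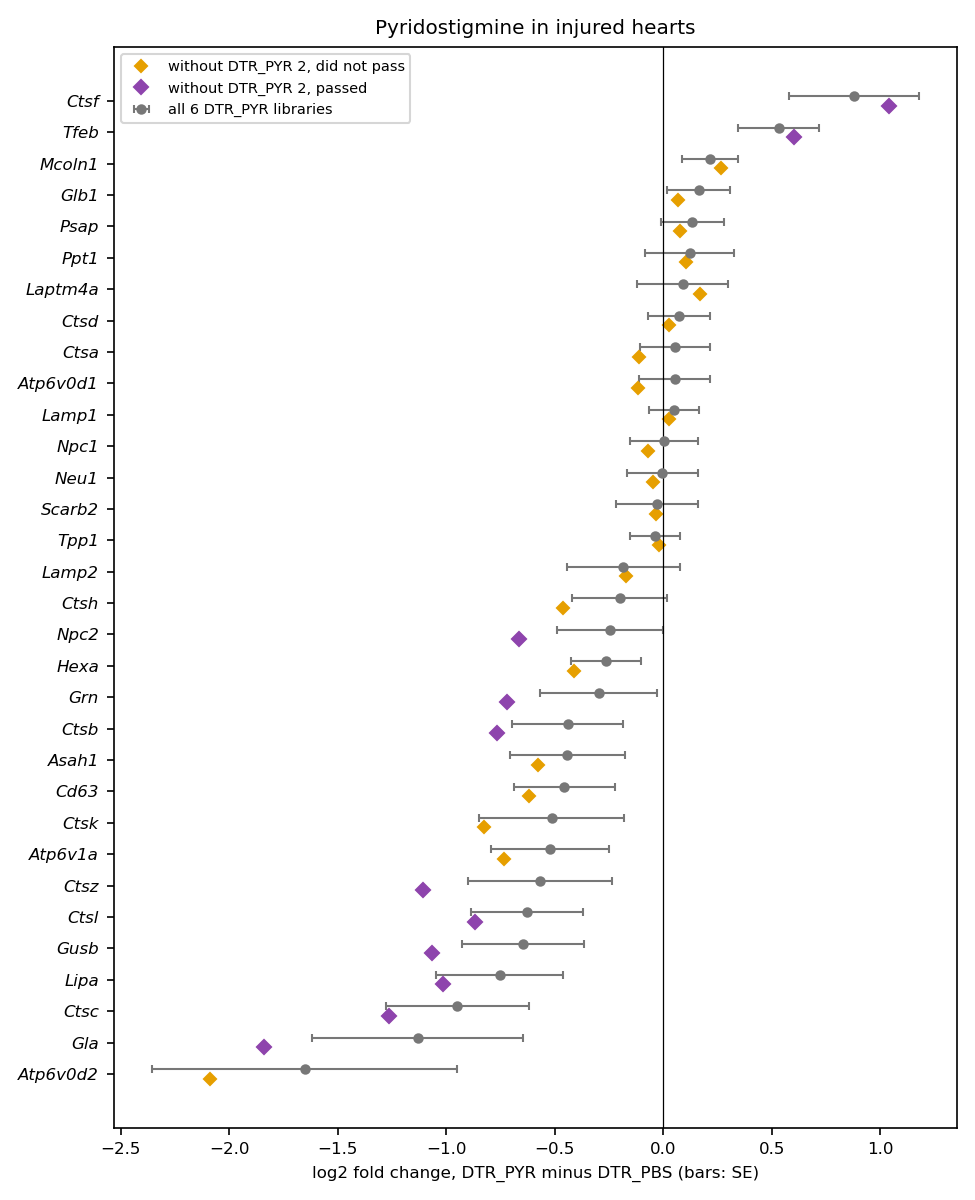
Log2 fold change of DTR_PYR against DTR_PBS (x axis) for the 32 genes, with all 6 DTR_PYR libraries (grey circles with the standard error) and without DTR_PYR 2 (diamonds, purple where the test was passed). With all libraries 0 genes passed. Without DTR_PYR 2, Ctsf and Tfeb passed upward and 9 genes passed downward. That library was singled out from these same values, so leaving it out builds in a larger difference.

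In uninjured hearts the drug left all 32 genes short of the threshold (WT_PYR against WT_PBS; 0 of 15456 genes in edgeR, or 0%). At an unadjusted p under 0.05 there were 1 member, Cd63 (log2 -0.49 ± 0.23), and 481 genes, and limma voom and DESeq2 called 0 members and 0 and 1 genes. Members' log2 changes ran from -0.49 to 0.22 with a median of -0.01. For Ctsc the value was -0.16 (95% interval -0.85 to 0.53), for Ctsz 0.07 (-0.63 to 0.77) and for Ctsf 0.02 (-0.58 to 0.62). The groups overlapped for all members, while 0.278% of all genes did not overlap (0.0906% higher, 0.188% lower). WT_PYR 1 was the highest of its group for 25 of the 32 genes, a count that was not made over all genes.

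The interaction, the difference between the injury effect with and without the drug, passed for 0 members and 0 genes in edgeR (0%). Ctsf alone had an unadjusted p under 0.05 (log2 0.86 ± 0.41, adjusted p = 0.621), as did 1231 genes, while limma voom and DESeq2 called 0 members and 0 and 9 genes. Under total-count scaling the median of all genes moved from 0.03 to -0.18, and 0 members passed. For Ctsc the difference was -0.79 (95% interval -1.76 to 0.18), for Ctsz -0.64 (-1.62 to 0.35), for Gla -0.77 (-2.23 to 0.69) and for Mcoln1 0.09 (-0.28 to 0.47). The count of 5 members under the drug against 20 without it is therefore not shown to be a difference between the drug groups.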

How the data were processed

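PolyA RNA of 24 hearts was sequenced as non-strand-specific, single-end libraries, per the labels' protocols. The authors deposited a table of raw counts per gene (46078 genes), which was used here, and a filtered table of depth-normalised signal values (15140 genes), checked only: these deposited signal values equalled the counts divided by 1 factor per library. Per the submitters' processing notes, which give no roles, the build was GRCm38 and the tools were HTSeq, edgeR, DESeq, Bowtie2, TopHat and TopHat2 2.1.1. Counts of genes with overlapping exons are uncertain (Ctsd 34.4%, Ctsl 26.8%, Ctsa 17.4%, Ctsb 12.8%, Hexa 12.8% and Lamp1 9.31% of exon bases shared). Ctsd overlaps a gene on its own strand, and Ctsl overlaps genes on both strands. Ctsa, Ctsb, Hexa and Lamp1 overlap genes on the opposite strand, which unstranded counts cannot separate.

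The filter on low counts asked for over 0.5 CPM in 6 or more libraries, which left 15456 genes. Counts were TMM-scaled and fitted with edgeR 4.0.16 (R 4.3.3; glmQLFit, glmQLFTest), 1 coefficient per group, all 24 libraries in 1 fit. P values are two-sided and Benjamini-Hochberg adjusted over all genes tested, with "passed", "rose" and "fell" at an adjusted p under 0.05. Intervals are 95%. Limma 3.58.1 and DESeq2 1.42.0 were alternatives. On simulated counts for injury under PBS (15203 genes), the fit recovered 71% of genes changed 2-fold and 99% of those changed 4-fold. Only 100 genes were changed at each fold, none of them low, with rises and falls balanced. These rates need not hold for the real contrast or for low genes. Exon lengths, counting each base in any annotated exon of a gene once, came from GENCODE vM21.

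Each title carries a number of its own, so each library was taken as 1 heart; if any share an animal, p values measure a spread that is partly technical, and replicate numbers follow accession order and pair nothing. The members and gene lists were chosen with earlier results of these data known. Per-library values are given for the called member with the largest fold change in each role, and up to 3 genes by p from each list; Ctsf, Tpp1 and the other named members were picked after their values were seen. Galns and Map1lc3b were not matched by symbol. Alternatives covered scaling, filters, tests, title letter and left-out libraries. The markers also covered neutrophils (4 of 6 tested rose under PBS, 0 under the drug), smooth muscle and pericytes (2 rose and 3 fell of 8; 0 and 1), lymphocytes (0 of 7; 1 rose), mast cells (0 of 4 and 0 of 4) and adipocytes (0 of 1 and 0 of 1).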

Additional observations from a re-analysis of the deposited data

Results flagged for a closer look

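In 19 of 128 checks of a member in a group of 6, 1 library lay far from the other 5. All 19 were high values, 8 of WT_PYR 1 and 11 of DTR_PYR 2. Members measured in the same library are not independent checks, so this count cannot be set against a chance rate. WT_PYR 1 read 646 CPM for Ctsb (others 416 to 461), 1927 for Ctsd (1127 to 1344), 44.4 for Ctsh (27.1 to 33.4), 562 for Lamp1 (385 to 445), 28.4 for Glb1 (18.6 to 21.5), 59.5 for Ppt1 (37.6 to 39.5), 299 for Laptm4a (161 to 182) and 68.5 for Atp6v0d1 (41.3 to 50.8). Its macrophage sum, 539 CPM, was also the highest of its group, and its total was 14368278 counts.

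DTR_PYR 2 read 1425 CPM for Ctsb (others 443 to 741), 75.8 for Ctsh (26.9 to 44.2), 10.7 for Ctsk (2.56 to 5.08), 204 for Ctsl (78.7 to 112), 204 for Ctsz (31.8 to 89.9), 13.0 for Gla (1.73 to 5.46), 84.9 for Gusb (23.2 to 38.1), 197 for Npc2 (50.9 to 87.0), 52.4 for Lipa (19.1 to 26.5), 77.8 for Atp6v0d1 (37.5 to 51.7) and 514 for Grn (113 to 236). The values without this library are given with the drug comparison.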

How the results depend on the processing

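No member called in the injury comparisons changed sign under any alternative run. For injury under PBS (20 members) the alternatives other than left-out libraries gave 17 to 22 members, except 7 within the V libraries, and leaving out 1 library gave 16 to 22. Of all genes, 22.2% (no filter) to 48.3% (total counts) passed in the former, 16.3% within V, and 36.9% to 44.1% leaving out 1 library. In the other lysosomal lists (66 genes) the V libraries gave 17 and leaving out 1 library 59 to 70. Ctsc, Ctsz, Ctsf, Grn and Gusb passed in all 24 alternatives. For injury under pyridostigmine (5 members) the count was 3 with no filter and with only the compared groups, where 4.20% and 7.89% of all genes passed. It was 8 with DESeq2 (16.7% of all genes), 2 with limma voom (5.09%) and 10 with the title letter as a term (18.9%). It was 12 within U (28.3%), 0 within V (0%) and 16 without DTR_PYR 4, 5 and 6 (5027 genes, 32.5%). Without the 3 shallowest libraries it was 0 (0.647%), and leaving out 1 library gave 1 to 8. Leaving out DTR_PYR 4, 5 and 6 was chosen from earlier results and builds in a larger response. For the drug in injured hearts (0 members) the count was 4 with limma voom, 3 within V and 9 without the 3 shallowest libraries, which include DTR_PYR 2. Leaving out 1 library gave 11 without DTR_PYR 2, which was singled out from these same values, and otherwise 0. For the drug in uninjured hearts and the interaction the count was 0 to 0. The cause of these shifts was not tested. Totals as low as 1877914 counts and 6 hearts per group limit the precision. No paired analysis was possible because replicate numbers follow accession order.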
